A study of Mus musculus with 80 samples.

Results

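The genes described here encode the nuclear-coded parts of the mitochondrial respiratory chain and ATP synthase, and they number 93 of the 32764 genes in the count tables. They were chosen by symbol alone. Every gene whose symbol starts with Nduf, Uqcr, Cox4 to Cox8 or Atp5 was taken, together with Sdha, Sdhb, Sdhc, Sdhd and Cycs. By role they were 36 subunits of complex I, 7 complex I assembly factors (Ndufaf1 to Ndufaf7), 5 genes of complex II and cytochrome c, 8 genes of complex III, 20 of complex IV, 15 of ATP synthase, and 2 further genes with Atp5 names (Atp5s and Atp5sl). Ndufa4 and Ndufa4l2 were counted with complex IV, where the Ndufa4 protein is found despite its name.

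The respiratory chain passes electrons from NADH and succinate through complexes I to IV to oxygen and pumps protons out of the mitochondrial matrix. ATP synthase uses the returning protons to make ATP, and in brown fat UCP1 lets them return without ATP synthesis, so that the energy is released as heat. Most subunits are made from a single gene in every tissue, but some have tissue isoforms: Cox6a2, Cox7a1 and Cox8b are the forms of heart and skeletal muscle, and Cox7a1 and Cox8b are also typical of brown fat. Subunit c, which forms the rotating ring of ATP synthase, is made from Atp5g1, Atp5g2 and Atp5g3, whose mature proteins are identical.

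RNA was measured in brown fat (BAT), inguinal white fat (iWAT), muscle and liver of male mice of 4 genotypes, with 5 libraries in each of 16 groups and 80 in all. The genotypes were wildtype (WT), FGF21 KO, UCP1 KO and the double knockout (dKO), which one label field and the study's methods spell UCP1/FGF12 and which is the UCP1/FGF21 double knockout elsewhere in the study. The knockouts were homozygous and present in every cell, on a C57BL/6J background, and FGF21 is a hormone that liver and fat can release. All mice, WT included, were born and raised at 30 °C, moved to room temperature at 10 to 12 weeks of age, given high-fat diet for 3 weeks and killed after a short food withdrawal, so that no group on chow or at thermoneutrality enters these comparisons. The labels name neither the individual mouse nor the muscle sampled, and replicate numbers here follow the order of deposition within a group and only name a library. P-values therefore measure the spread between these libraries.

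The libraries held 28691377 to 50380696 counted reads, with a median of 38022853. Levels are given as CPM, read counts scaled to a common library size with trimmed-mean (TMM) factors within a tissue. Fgf21 was at or below 0.108 CPM in every FGF21 KO and dKO library of the 4 tissues, against 0.228 to 0.290 CPM in WT BAT and 9.47 to 35.2 CPM in UCP1 KO BAT, although muscle of WT mice was as low. Ucp1 transcript remained in the knockouts. In BAT it was 3205 to 7555 CPM in WT, 5246 to 8074 CPM in FGF21 KO, 529.8 to 1238 CPM in UCP1 KO and 1046 to 1883 CPM in dKO, whereas in iWAT the libraries labelled UCP1 KO held more (102 to 735 CPM) than those labelled WT (2.64 to 16.7 CPM). Gene counts do not show which exons were read, so the Ucp1 counts check the labels in BAT and not in iWAT. The marker score of lymph node cells was above 4 in 9 of the 20 iWAT libraries and in 0 libraries of the other tissues, and skeletal muscle markers were raised in some BAT and iWAT libraries. For the main fat comparisons and the tissue comparisons, the counts of called members are also given without those libraries.

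In WT mice the members were highest in BAT. Their summed level was 49937 to 53195 CPM in WT BAT, 22392 to 27074 CPM in muscle, 10566 to 13499 CPM in iWAT and 10510.4 to 12422 CPM in liver. In these sums BAT and muscle stood apart from each other and from both other tissues, while iWAT and liver overlapped. The factors were set within each tissue, so the sums are not on a common scale between tissues. With TMM over the 20 WT libraries, BAT exceeded iWAT by a median of 2.53 (log2) and liver by 1.62. Scaled by library totals in place of TMM, the medians were 1.80 and 1.97, so the order of iWAT and liver depended on the scale. Per kilobase of transcript, Atp5b, the catalytic beta subunit of ATP synthase, had the highest level of all members in each of the 4 tissues. Its level was 3694 ± 129.9 CPM per kilobase in BAT, 1681 ± 105 in muscle, 825 ± 41.3 in liver and 515 ± 68.4 in iWAT (mean ± SD, n = 5, scaled over the 20 WT libraries). In BAT the next were Cox8b at 2127 ± 155 and Cox4i1, the common form of a core complex IV subunit, at 1666 ± 43.5 CPM per kilobase. In iWAT Cox4i1 (305 ± 28.0) and Atp5g3 (253 ± 34.8) followed, in liver Ndufa4 (612 ± 83.0) and Atp5g3 (555 ± 78.6), and in muscle Atp5a1, the alpha subunit of ATP synthase (1086 ± 118), and Ndufa4 (882 ± 40.2). In these orders the gap between Ndufa4 and Atp5g3 in liver was within their SDs, and that between Cox4i1 and Atp5g3 in iWAT was larger than either SD.

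Of the 91 members that passed the low-count filter, 86 were higher in BAT than in iWAT and 2 were lower at an adjusted p under 0.01 (edgeR quasi-likelihood test, Benjamini-Hochberg adjustment over all genes tested), where 28.0% and 32.7% of all genes were. The median log2 fold change of the members was 2.53. The largest differences were those of Cox7a1 (6.16), Cox8b (4.82), Ndufv1, which holds the flavin where NADH is oxidised (3.45), Cycs, cytochrome c (3.39), and Cox5a (3.36). Cox6a2 (log2 fold change -4.25, SE 1.26, adjusted p = 0.00575) and Atp5g1 (log2 fold change -2.50, SE 0.171, adjusted p = 1.71e-10) were lower in BAT. WT iWAT replicates 4 and 5 held both lymph node and skeletal muscle markers. Without them 86 members were higher in BAT and 1 lower (28.6% and 31.4% of all genes), all of them called with 5 libraries too, and Atp5g1 was the lower one (-2.31, adjusted p = 5.51e-12). The Cox6a2 difference then turned and did not pass (1.36, adjusted p = 0.0647). Between BAT and muscle, 64 members were higher in BAT and 8 lower (32.3% and 31.8% of all genes), with a median of 0.66. Cox6a1 (5.61), Cox8a (4.74), Cox6b2 (3.14), Sdhd, a membrane anchor of complex II (1.51), and Ndufv1 (1.48) had the largest differences. Cox6a2 (-10.75), Atp5g1 (-6.71), Atp5j, a subunit of the ATP synthase stalk (-1.84), Atp5g3 (-1.66) and Atp5s (-0.90) were the lowest in BAT relative to muscle. Against liver, 85 members were higher in BAT and 4 lower (34.8% and 32.5% of all genes), with a median of 1.62. The 4 lower ones were Atp5g1 (-5.13), Atp5g3 (-1.27), Atp5j (-0.99) and the assembly factor Ndufaf6 (-0.35). Muscle exceeded liver for 82 members and was below it for 3 (38.6% and 35.2% of all genes). Those 3 were Cox6a1 (-3.22), Cox8a (-2.68) and the assembly factor Ndufaf2 (-0.42). Tissues differ in many genes at once, and scaling by library totals in place of TMM shifted all genes by -0.74 (log2) for BAT against iWAT, where 85 members were then higher and 4 lower, against 10.7% and 65.0% of all genes. The shifts were 0.24 for BAT against muscle (74 members higher and 7 lower, 38.8% and 25.3% of all genes), 0.35 for BAT against liver (86 and 3, 44.7% and 22.7%) and 0.10 for muscle against liver (85 and 2, 40.7% and 32.2%). Without WT iWAT replicates 4 and 5 these pairs gave 69 and 8 (35.1% and 34.1%), 86 and 4 (36.9% and 35.1%) and 83 and 3 (40.3% and 37.5%).

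The share of each gene within an isoform family was compared between tissues. Shares were computed within each library, in counts per kilobase of transcript, so they need no scaling between libraries. Cox6a2 made up 95.4% ± 1.75 (SD, n = 5) of the Cox6a pair in WT muscle and 0.0259% ± 0.0172 in WT BAT, where nearly all was Cox6a1. Cox8b made up 95.0% ± 1.05 of its family in muscle, 66.0% ± 1.06 in BAT, 24.0% ± 7.98 in iWAT and 0.575% ± 0.193 in liver, with Cox8a as the rest. Cox7a1 held 65.2% ± 1.93 in muscle and 59.6% ± 1.89 in BAT but 7.58% ± 6.26 in iWAT and 0.906% ± 0.125 in liver. Replicate 5, whose muscle marker score of 9.45 was the highest in WT iWAT, held 18.4% Cox7a1, and the iWAT mean was 4.89% ± 1.95 (n = 4) without it. Without replicates 4 and 5 the iWAT means were 3.92% ± 0.297 for Cox7a1 and 18.2% ± 0.962 for Cox8b (n = 3). BAT therefore shared the Cox7a1 and Cox8b forms with muscle and lacked the Cox6a2 form.

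**Figure D1:**
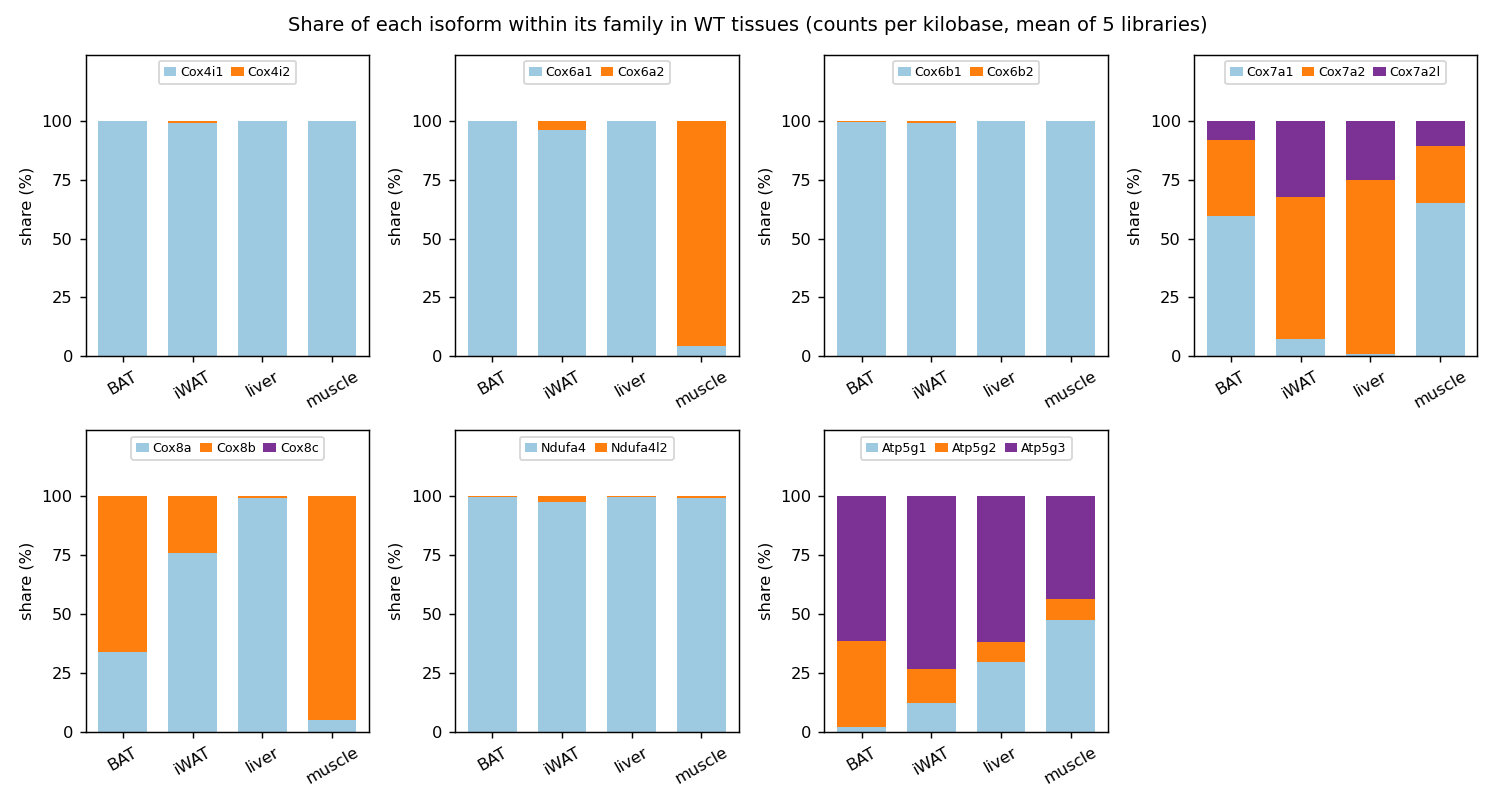
Share of each gene in its isoform family (percent of the family's counts per kilobase, vertical axis) in WT BAT, iWAT, liver and muscle, as stacked bars of the mean over 5 libraries, for 7 families. Cox6a2 fills most of its bar only in muscle, Cox8b and Cox7a1 fill most of theirs in BAT and muscle, and Atp5g1 is a thin band in BAT and close to equal with Atp5g3 in muscle.

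Of the genes for subunit c, Atp5g1 provided 2.02% ± 0.405 in BAT, 12.5% ± 4.46 in iWAT, 29.5% ± 0.860 in liver and 47.7% ± 1.28 in muscle. Atp5g2 provided 36.7% ± 1.09 in BAT and between 8.52 and 14.5% in the other tissues, and Atp5g3 was the most abundant of the trio in BAT, iWAT and liver. The liver shares of the Cox7a family were 73.7% ± 1.52 for Cox7a2, its common form, and 25.4% ± 1.51 for Cox7a2l. The remaining families had a single dominant gene in all 4 tissues of WT mice. Cox4i1 held at least 98.9% in each library against Cox4i2, a form known to respond to oxygen, Cox6b1 at least 98.8% against Cox6b2, and Ndufa4 at least 96.3% against Ndufa4l2, a gene that hypoxia induces. Cox7b2 and Cox8c, both known from testis, had a count of 0 in all 80 libraries and were not tested. Cox6a2 in WT iWAT ranged from 0.0396 to 19.2%, and the highest value came from replicate 5, against at most 0.105% in replicates 1 to 3.

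In BAT of UCP1 KO mice the members were lower than in WT in all complexes on the TMM scale, by a modest amount, while with library totals alone the median lay near 0 and that of ATP synthase turned positive. Of the 91 tested, 43 fell and 2 rose (edgeR quasi-likelihood test, adjusted p under 0.01), where 11.4% of all genes tested fell and 13.8% rose. Fewer members, and fewer of all genes, passed in a fit of the compared genotypes alone, as given in the last section. The median log2 fold change of the members was -0.32, against 0.01 over all genes tested, and 85 of the 91 were below 0. In 39 members every UCP1 KO library was below every WT library, which held for 11.7% of all genes. The fall covered 18 of the 36 complex I subunits (median -0.32), 3 of the 5 genes of complex II and cytochrome c (-0.41), 4 of 8 in complex III (-0.36), 10 of 18 tested in complex IV (-0.46) and 6 of 15 in ATP synthase (-0.24). Of the 7 complex I assembly factors, 2 fell and the median was -0.06. In bulk tissue, fewer cells of a type and less RNA per cell cannot be told apart.

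Summed over all 93 genes, the members made 51124, 53195, 51289.5, 49937 and 52653 CPM in the 5 WT libraries and 50192, 37468, 43626, 41244 and 34669 CPM in the UCP1 KO libraries. The sums were 50309.6, 52069, 50112, 51279 and 57811 CPM in FGF21 KO and 44998, 47411, 46106, 46583 and 43937 CPM in dKO. UCP1 KO replicate 1 lay at the level of WT, so the sums of those groups overlapped, while the remaining UCP1 KO libraries and all dKO libraries were below every WT and FGF21 KO library.

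**Figure D2:**
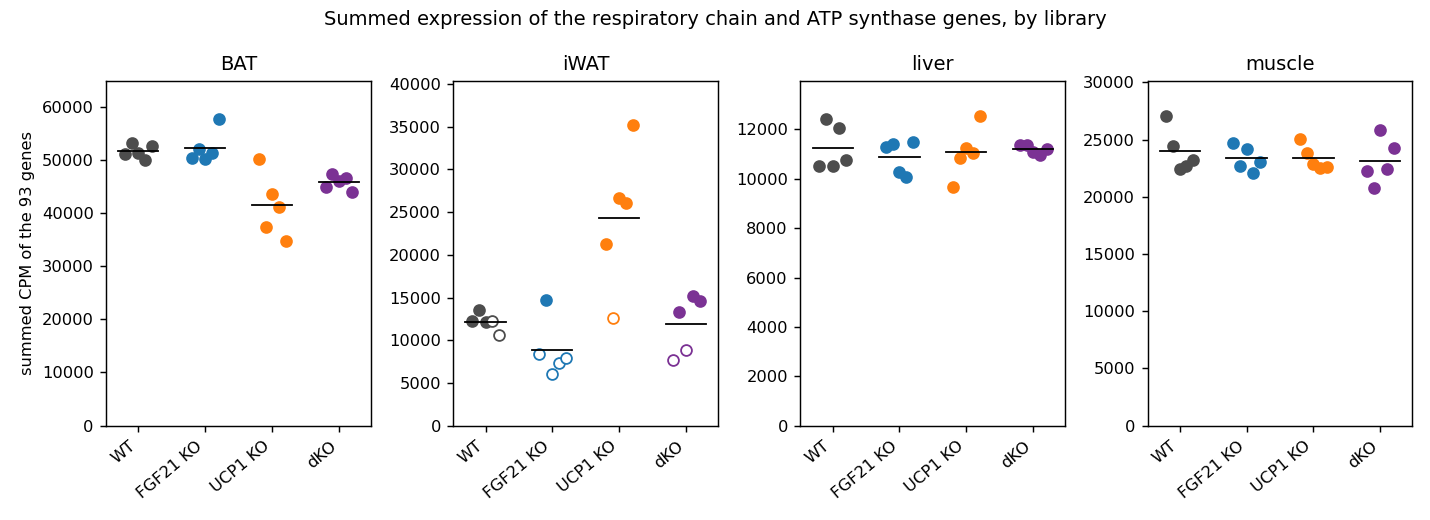
Summed CPM of the 93 members (vertical axis) in each library, by tissue and genotype, with the mean of 5 libraries as a line and open circles for iWAT libraries with a lymph node score above 4. In BAT all dKO and 4 of 5 UCP1 KO libraries lie below the WT and FGF21 KO libraries, in iWAT 4 of 5 UCP1 KO libraries lie above all others, and the genotypes overlap in liver and muscle.

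Ndufa1 (chrX:37187588-37191163), a small accessory subunit in the membrane arm of complex I, had the largest fall of its complex. Its levels were 245, 253, 251.9, 265 and 275 CPM in WT, 237, 234, 243, 250.4 and 308 in FGF21 KO, 165, 141, 142, 114 and 92.1 in UCP1 KO and 141, 154, 165, 143 and 149.7 in dKO BAT. The UCP1 KO and dKO libraries were all below the lowest WT and FGF21 KO library, and UCP1 KO was 1.97-fold lower than WT (log2 fold change -0.98, SE 0.117, adjusted p = 6.71e-06). The next in complex I were Ndufb3, another accessory subunit of the membrane arm (-0.72, adjusted p = 0.000250), and Ndufv1 (-0.52, adjusted p = 0.000113). The assembly factors that fell were Ndufaf3 (-0.39, adjusted p = 0.00507) and Ndufaf5 (-0.29, adjusted p = 0.00827), and these calls were lost in 7 and 10 of the 20 fits that left out 1 library. In complex II the membrane anchors Sdhd (-0.69, adjusted p = 7.10e-05) and Sdhc (-0.51, adjusted p = 1.19e-05) and the flavoprotein Sdha (-0.41, adjusted p = 0.000973) fell, while Cycs did not pass (-0.01, adjusted p = 0.945).

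Uqcrh (chr4:116066965-116075071), the hinge protein that bridges cytochrome c1 and cytochrome c, led complex III. Its levels were 659, 686, 676, 644 and 716 CPM in WT, 628, 687, 675, 674 and 851 in FGF21 KO, 489, 347, 344, 304 and 312 in UCP1 KO and 377, 452, 398, 401 and 416 in dKO BAT. The groups with and without UCP1 did not overlap (UCP1 KO against WT log2 fold change -0.91, SE 0.110, adjusted p = 7.17e-06). Uqcr11 (-0.82, adjusted p = 1.07e-05) and Uqcrb (-0.48, adjusted p = 0.00340), both small subunits of complex III, fell as well. In complex IV the largest falls were those of Cox6c (-0.83, adjusted p = 9.85e-06), Ndufa4 (-0.82, adjusted p = 7.27e-06) and Cox8b (chr7:140898945-140900446, log2 fold change -0.74, SE 0.120, adjusted p = 0.000129). Cox8b was at 731, 806, 875, 777 and 852 CPM in WT, 810.3, 775, 712, 814 and 1000.5 in FGF21 KO, 646, 491, 503, 433 and 355 in UCP1 KO and 533, 545, 581, 534 and 532 in dKO BAT. It was thus lower in every library without UCP1. Its share of the Cox8 family was 64.9 to 67.3% in WT libraries and 64.2 to 69.6% in those of FGF21 KO, against 59.9 to 64.6% in UCP1 KO and 61.1 to 63.1% in dKO, so Cox8b fell relative to Cox8a and the ranges of WT and UCP1 KO did not overlap. Cox7a1 did not pass (-0.28, adjusted p = 0.0891) and its share of 54.5 to 64.2% in UCP1 KO enclosed that of WT.

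In ATP synthase the largest falls were those of Atp5k (-0.81, adjusted p = 3.03e-06), Atp5e (-0.69, adjusted p = 6.49e-05) and Atp5j2 (-0.61, adjusted p = 0.000145), which encode the small e, epsilon and f subunits. Atp5k was 302, 296, 295, 287 and 328 CPM in WT and 216, 166, 178, 154 and 145 CPM in UCP1 KO, without overlap. The catalytic Atp5b (-0.09, adjusted p = 0.429) and the core complex IV gene Cox4i1 (-0.19, adjusted p = 0.0589) did not pass. The 36 members with transcripts under 700 bases had a median of -0.44 and 25 of them were called in either direction, against -0.26 and 20 of the 55 longer ones. Spearman's rho between fold change and length was 0.437 over the 91 members and -0.0291 over 13432 genes with a length, while Pearson's r with log2 length was 0.0587 over the members, and the 283 genes of all kinds under 700 bases had a median of -0.07. These points share libraries and are a description only. The exact two-sided permutation test gave p = 0.00794 for Ndufa1, Uqcrh, Cox8b and Atp5k alike, the smallest that 5 libraries against 5 allow.

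**Figure D3:**
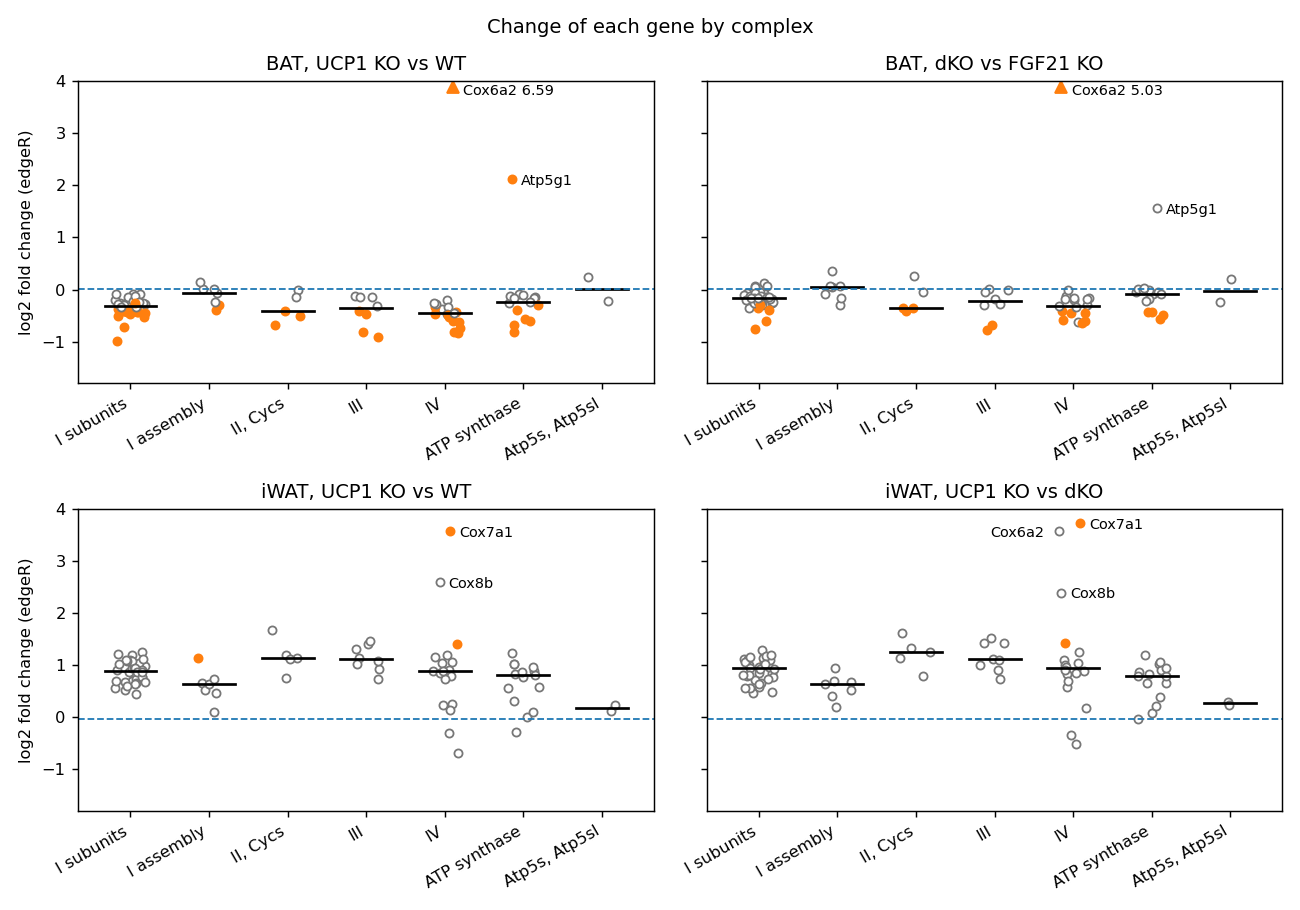
Log2 fold change of each member (vertical axis) by complex for BAT UCP1 KO against WT, BAT dKO against FGF21 KO, iWAT UCP1 KO against WT and iWAT UCP1 KO against dKO, with orange points for an adjusted p under 0.01, a black line for the median of a complex, a dashed line for the median of all genes tested and a triangle for Cox6a2 beyond the axis. On the TMM scale shown, most members lie below the dashed line in both BAT panels and above it in both iWAT panels, while with library totals the members' medians in BAT become -0.03 and 0.05.

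The size of the BAT difference depended on how libraries were put on a common scale. The TMM factors in BAT were 0.901 to 0.944 for WT and 1.00 to 1.31 for UCP1 KO. As a measured difference between these libraries, 2 abundant identifiers that the tables do not pair with a gene went from 8.36 to 9.18% and 5.20 to 5.90% of counts in WT to 2.53 to 5.51% and 1.55 to 2.46% in UCP1 KO, and their part in the factors was not tested. With library totals alone, all genes moved up by 0.30 (log2). The members' median was then -0.03, with 17 lower and 6 higher, and over all genes 2.89% were lower and 33.3% higher. All 17 were among the 43: Ndufa1, Ndufb3, Ndufv1, Sdhc, Sdhd, Uqcrh, Uqcr11, Cox6b1, Cox6c, Cox7b, Cox7c, Cox8b, Ndufa4, Atp5e, Atp5j2, Atp5k and Atp5l. On this scale the medians were -0.14 in complex IV, 0.05 in ATP synthase and 0.21 in the complex I assembly factors, the last pair now above 0. The members together took 4.65 to 4.87% of all counts in WT and 4.17 to 5.03% in UCP1 KO BAT, and these ranges overlapped.

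Ratios between complexes within a library do not depend on this scale. They sum counts not divided by transcript length, so the genes with most counts, such as Atp5b and Atp5a1 in ATP synthase, weigh most. Summed counts of complex IV divided by those of ATP synthase were 0.571, 0.580, 0.593, 0.590 and 0.589 in WT and 0.589, 0.565, 0.563, 0.574 and 0.594 in FGF21 KO BAT. They were 0.510, 0.487, 0.478, 0.443 and 0.441 in UCP1 KO and 0.462, 0.467, 0.516, 0.486 and 0.466 in dKO, below every library with UCP1. Complex I subunits to ATP synthase behaved alike, at 0.758 to 0.776 in WT, 0.753 to 0.781 in FGF21 KO, 0.620 to 0.722 in UCP1 KO and 0.674 to 0.737 in dKO. The ratio of complex III to ATP synthase spanned 0.392 to 0.399 for WT and 0.336 to 0.406 for UCP1 KO, which overlapped, and 0.360 to 0.382 in dKO, which lay below the 0.386 to 0.400 of FGF21 KO. The assembly factors went up relative to the subunits they assemble, from 0.0196 to 0.0212 of complex I subunit counts in WT and 0.0201 to 0.0215 in FGF21 KO to 0.0237 to 0.0269 in UCP1 KO and 0.0238 to 0.0264 in dKO. Apart from complex III, these ratios in every UCP1 KO and dKO library lay outside the range of WT and FGF21 KO.

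**Figure D4:**
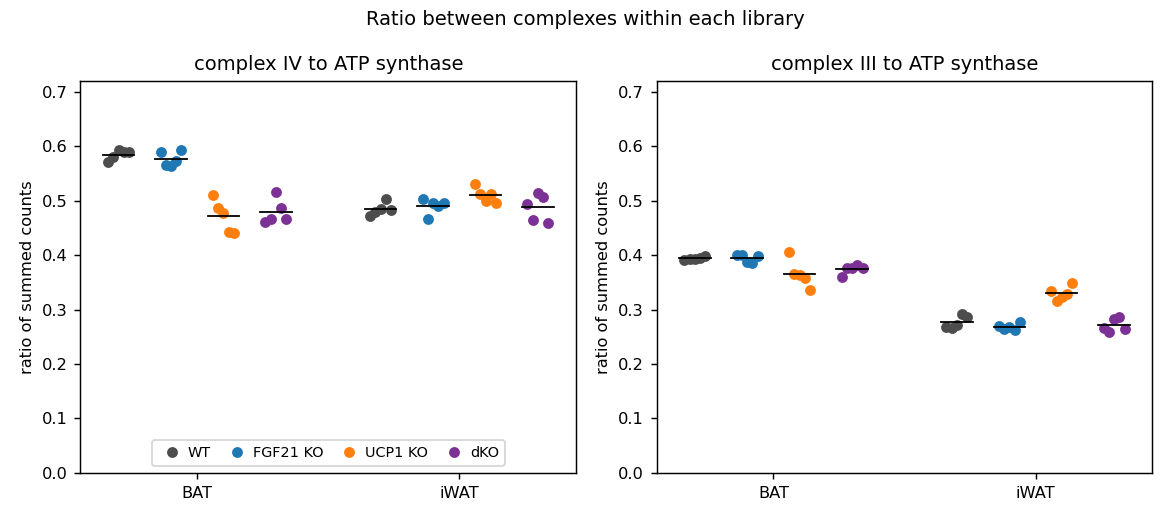
Summed counts of complex IV and of complex III divided by those of ATP synthase (vertical axes) in each library of BAT and iWAT by genotype, with a line for the mean of 5. In BAT the complex IV ratio spans 0.571 to 0.593 for WT, 0.441 to 0.510 for UCP1 KO and 0.462 to 0.516 for dKO, and in iWAT the complex III ratio of UCP1 KO lies above the other 3 genotypes.

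The same question without FGF21, dKO against FGF21 KO, uses 10 other libraries. Here 20 members fell and 1 rose (edgeR, adjusted p under 0.01), where 6.80% of all genes fell and 6.74% rose, and the median was -0.17 against 0.00 over all genes. In 36 members every dKO library was below every FGF21 KO library, against 9.80% of all genes. All 20 were among the 43 that fell in UCP1 KO against WT, which is 46.5% of the 43 and 100% of the 20. The same overlap was not counted over all genes tested, so it is not shown to be particular to the members. They were 5 complex I subunits, 3 genes of complex II, 2 of complex III, 6 of complex IV and 4 of ATP synthase, with no assembly factor. The largest falls were those of Uqcrh (-0.78, adjusted p = 6.49e-05), Ndufa1 (-0.76, adjusted p = 0.000157), Uqcr11 (-0.68, adjusted p = 0.000125), Ndufa4 (-0.63, adjusted p = 0.000162), Ndufb3 (-0.61, adjusted p = 0.00191) and Cox6c (-0.60, adjusted p = 0.000403). Cox8b (-0.59, adjusted p = 0.00151), Atp5k (-0.57, adjusted p = 0.000187), Atp5e (-0.49, adjusted p = 0.00213), Sdhd (-0.42, adjusted p = 0.00688), Ndufv1 (-0.39, adjusted p = 0.00233), Sdhc (-0.35, adjusted p = 0.000749), Sdha (-0.35, adjusted p = 0.00568) and Atp5l (-0.44, adjusted p = 0.00411) fell by less. The calls of Sdhd, Sdha and Atp5l were lost in 13, 9 and 4 of 20 fits without 1 library. With library totals, all genes moved up by 0.23, the members' median became 0.05, and 8 members were lower and 9 higher, where 1.74% and 17.3% of all genes were.

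Loss of FGF21 alone called no member in BAT, and no member passed the test of the interaction of both losses. FGF21 KO against WT called 0 of 91 with edgeR (0% of all genes), 0 members had an unadjusted p under 0.05 (8.55% of all genes), and DESeq2 called 0. UCP1 KO against dKO called 0 with edgeR (0.0636% of all genes) and 0 with DESeq2, with 1 member higher and 21 lower at an unadjusted p under 0.05 (12.9% of all genes, both directions together), a median of -0.15 and a smallest adjusted p of 0.234. The interaction of both losses called 0 with edgeR (0% of all genes) and 0 with DESeq2, with 1 member at an unadjusted p under 0.05 (5.37% of all genes). Comparing dKO with WT, 19 members were lower and 1 higher, where 10.0% and 11.1% of all genes were. With library totals 10 were lower and 6 higher, where 3.13% and 20.8% of all genes were. Ndufb7, a complex I subunit, is the only member within 10 Mb of Ucp1 or Fgf21, at 0.268 Mb from Ucp1 on chromosome 8, and did not pass in BAT of UCP1 KO (-0.21, adjusted p = 0.0650).

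White adipocyte markers were lower in UCP1 KO than in WT BAT for 2 of 6 genes (Adipoq, which encodes adiponectin, -1.15, and Lipe, a lipase, -0.43), with summed levels of 5103 to 11902 CPM against 10278 to 11370 CPM. Of 7 brown adipocyte markers other than Ucp1, Elovl3, a fatty acid elongase, rose (3.31) and P2rx5 fell (-0.74), and their sums were 1764 to 4121 CPM against 2308 to 2898 CPM. None of these markers was at 0, and their part in the members' fall was not tested.

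The member that rose most in BAT without UCP1 was the muscle form Cox6a2 (chr7:128205435-128206387). It was at 0.183, 0.211, 0.455, 0.423 and 0.0290 CPM in WT, 0.198, 1.15, 0.129, 0.0346 and 1.47 in FGF21 KO, 4.61, 43.3, 18.8, 20.5 and 36.7 in UCP1 KO and 32.2, 9.44, 31.1, 16.2 and 8.34 in dKO BAT. Every UCP1 KO and dKO library exceeded every WT and FGF21 KO library (UCP1 KO against WT log2 fold change 6.59, SE 0.816, adjusted p = 9.38e-06; dKO against FGF21 KO log2 fold change 5.03, SE 0.727, adjusted p = 8.44e-05; edgeR). The WT libraries rest on 1 to 13 counts and the UCP1 KO libraries on 172 to 1733, so the fold is imprecise although the groups are far apart. Its share of the Cox6a pair was 0.00286 to 0.0459% in WT, 0.539 to 6.64% in UCP1 KO and 1.09 to 4.02% in dKO, so that Cox6a1 still dominated in all of them.

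Atp5g1 (chr11:96068852-96075670), the subunit c gene that is scarce in WT BAT, was the other member that rose. It was at 4.62, 4.14, 5.49, 5.82 and 3.74 CPM in WT, 4.70, 4.89, 4.87, 4.05 and 4.91 in FGF21 KO, 4.05, 41.0, 7.35, 7.06 and 43.5 in UCP1 KO and 22.0, 5.34, 21.9, 13.7 and 6.12 in dKO BAT. UCP1 KO replicates 2 and 5 were far above the WT range while replicate 1 lay within the WT range, and the UCP1 KO and WT groups overlapped. UCP1 KO against WT passed (log2 fold change 2.11, SE 0.560, adjusted p = 0.00596) but lost the call in 7 of 20 fits that left out 1 library, among them those without UCP1 KO replicate 2 or 5 (log2 fold changes of 1.70 and 1.64) and those without any 1 of the WT libraries, with adjusted p up to 0.0235. In dKO against FGF21 KO it did not pass (log2 fold change 1.56, SE 0.552, adjusted p = 0.0417), though every dKO library was above every FGF21 KO library. Its share of the subunit c genes was 1.98, 15.8, 3.35, 3.86 and 18.3% in the UCP1 KO libraries, 8.43, 2.24, 8.88, 6.44 and 2.71% in dKO and 1.56 to 2.45% in WT.

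Cox6a2 and Atp5g1 are both high in skeletal muscle, and muscle markers were raised in some of these BAT libraries. The 10 markers (Acta1, Myh4 and others) summed to 27.0 to 113 CPM in WT, 28.6 to 417 CPM in FGF21 KO, 57.4 to 8288 CPM in UCP1 KO and 91.7 to 4455 CPM in dKO. None was at 0, and 5 of 10 rose in UCP1 KO against WT and 0 of 10 in dKO against FGF21 KO. To set them beside the members, levels were expressed as a percentage of the mean of WT muscle. The median marker reached 0.0452, 5.92, 0.574, 0.283 and 0.0528% in the UCP1 KO libraries, where Cox6a2 reached 1.33, 13.9, 5.83, 6.99 and 13.9% and Atp5g1 1.04, 11.7, 2.04, 2.15 and 14.7%. In dKO the median marker was 2.59, 0.0675, 3.03, 2.69 and 0.212%, Cox6a2 10.3, 2.85, 9.26, 4.97 and 2.47% and Atp5g1 6.27, 1.44, 5.82, 3.74 and 1.62%. Cox6a2 exceeded the median marker in every UCP1 KO and dKO library, and also in 4 of 5 WT and 4 of 5 FGF21 KO libraries at levels up to 0.382%. The highest single marker exceeded Cox6a2 in UCP1 KO replicate 2 (16.3%) and in dKO replicate 4 (13.5%). In UCP1 KO replicate 5 no marker exceeded 0.0643% of the muscle level, while Cox6a2 stood at 13.9% and Atp5g1 at 14.7%. With the muscle score as a covariate, UCP1 KO against WT gave 39 members lower and 1 higher (9.24% and 12.0% of all genes), and dKO against FGF21 KO 11 lower and 1 higher (3.48% and 4.65%). In the BAT libraries with a low muscle score alone (5 WT, 5 FGF21 KO, 4 UCP1 KO and 2 dKO) the counts were 32 lower and 1 higher (11.1% and 13.5%), and 9 lower and 1 higher (5.35% and 6.55%). This set kept UCP1 KO replicates 3 and 4 (scores 5.88 and 4.69), above the highest WT score of 3.11, so muscle signal was not equal between the groups. The lower members were among those called in all libraries, apart from 2 of the 9. The higher one was Cox6a2 in each of these fits. Its log2 fold change was 5.92 with the covariate and 6.30 in the libraries with a low score for UCP1 KO against WT, and 4.05 and 3.90 for dKO against FGF21 KO. Atp5g1 passed in none of them. It was 1.70 in UCP1 KO against WT (adjusted p = 0.0210 with the covariate and 0.0131 in the libraries with a low score), and in dKO against FGF21 KO it was 0.82 with the covariate (adjusted p = 0.396) and 0.29 in the libraries with a low score (adjusted p = 0.769).

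**Figure D5:**
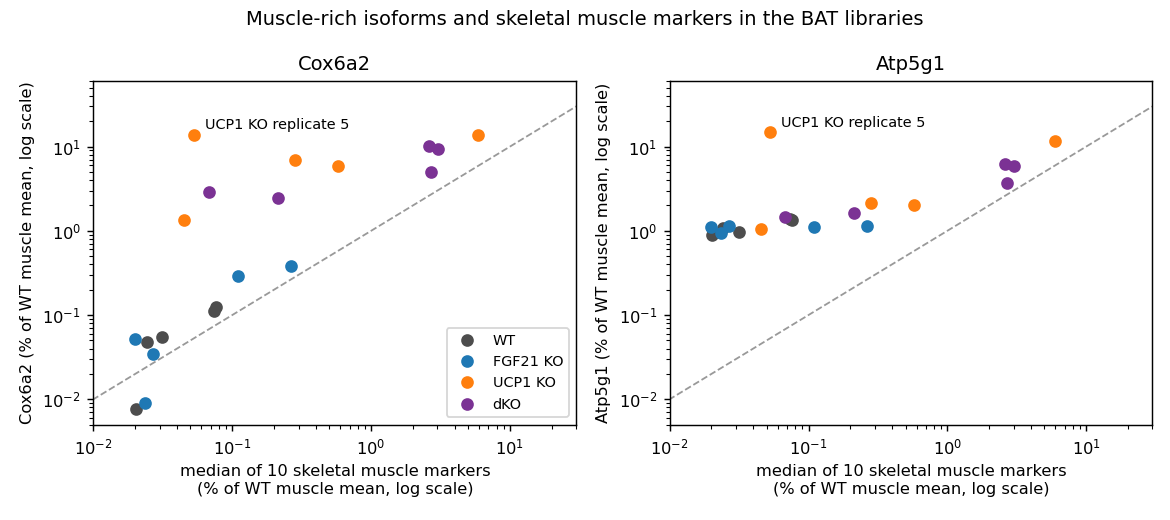
Cox6a2 and Atp5g1 in each BAT library (percent of their mean in WT muscle, vertical log axes) against the median of 10 skeletal muscle markers on the same scale (horizontal log axes), by genotype, with a dashed line where both are equal. Every UCP1 KO and dKO library lies above the line for Cox6a2, as do 4 of 5 libraries of WT and of FGF21 KO at far lower levels, and UCP1 KO replicate 5 has 13.9% and 14.7% of the muscle level at a marker median of 0.0528%.

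Promoters of the members were read to see which sequence motifs the genes that move together share. Windows of 250 bases before the start site were taken from RefSeq on GRCm38.p6 and matched for 77 of the 93 members, and 27025 windows of the same length served for comparison. Each motif was searched on both strands. The core of the NRF1 site (GCATGCG), a factor known for respiratory chain genes, was in 10 of 77 members (13.0%) and in 3.06% of all windows. The site of ETS factors such as GABPA (CCGGAAG) was in 12 (15.6%, against 7.07%), the ERR site (AAGGTCA) in 5 (6.49%, against 4.04%), the MyoD-type E-box (CAGCTG) in 6 (7.79%, against 12.7%) and the YY1 core (AAGATGG) in 0 (against 4.51%). Of the members that fell in BAT of UCP1 KO, 8 of 36 with a window held the ETS site, against 4 of 40 other tested members. For the other motifs the numbers were 4 and 6 (NRF1), 2 and 3 (ERR), 2 and 4 (E-box) and 0 and 0 (YY1), so no motif was held by most of the members that fell. Windows are given in the orientation of transcription, for Uqcrh and Uqcr11, which led the fall in complex III, Cox8b, the isoform that fell relative to Cox8a, and Cox6a1, the common partner of Cox6a2. Capitals mark the ETS site in Uqcrh (10 bases before the start), Uqcr11 (66) and Cox6a1 (16), and the E-box in Cox8b (19). They also mark a single palindromic stretch in Cox6a1 that matches the NRF1 core on both strands (161 and 160). A match to these letters is a description of the sequence.
Uqcrh, chr4:116075071-116075320, minus strand: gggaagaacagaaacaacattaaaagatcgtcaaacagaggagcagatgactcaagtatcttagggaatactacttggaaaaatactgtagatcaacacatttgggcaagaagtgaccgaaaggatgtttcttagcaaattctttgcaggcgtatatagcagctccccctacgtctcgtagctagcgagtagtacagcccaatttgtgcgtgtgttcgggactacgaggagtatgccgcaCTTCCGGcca
Uqcr11, chr10:80406822-80407071, minus strand: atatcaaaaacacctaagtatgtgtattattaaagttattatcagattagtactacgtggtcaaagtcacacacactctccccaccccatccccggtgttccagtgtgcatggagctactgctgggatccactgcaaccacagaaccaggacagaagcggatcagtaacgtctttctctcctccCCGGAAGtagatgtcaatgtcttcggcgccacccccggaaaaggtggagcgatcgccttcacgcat
Cox8b, chr7:140900447-140900696, minus strand: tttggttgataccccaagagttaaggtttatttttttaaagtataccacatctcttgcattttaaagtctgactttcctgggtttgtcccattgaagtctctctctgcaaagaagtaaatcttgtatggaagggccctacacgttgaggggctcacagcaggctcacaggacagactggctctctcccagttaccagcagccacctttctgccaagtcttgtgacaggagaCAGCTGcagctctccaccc
Cox6a1, chr5:115348959-115349208, minus strand: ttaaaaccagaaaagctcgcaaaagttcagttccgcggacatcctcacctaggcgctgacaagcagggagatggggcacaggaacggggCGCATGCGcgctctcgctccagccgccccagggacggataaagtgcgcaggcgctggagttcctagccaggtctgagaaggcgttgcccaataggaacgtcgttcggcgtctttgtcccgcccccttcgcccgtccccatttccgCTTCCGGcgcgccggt

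In iWAT the members' median lay above 0, where in BAT it lay below 0 on the TMM scale. In UCP1 KO against WT, 3 of 91 members rose and 0 fell (edgeR, adjusted p under 0.01), where 0.593% of all genes rose with edgeR. DESeq2 called 47, and its own share of all genes is given further below. The members' median log2 fold change was 0.87, against -0.03 over all genes tested, and 88 of the 91 were above 0. At an adjusted p under 0.05 it was 30 members (2.31% of all genes), and at an unadjusted p under 0.05 it was 78 (10.2%). In 17 members all UCP1 KO libraries lay above all WT libraries (2.92% of all genes). The medians were 0.88 in complex I subunits, 0.64 in the assembly factors, 1.15 in complex II and cytochrome c, 1.11 in complex III, 0.88 in complex IV and 0.82 in ATP synthase. Summed over all members, the UCP1 KO libraries held 21268, 12559, 26629, 26115 and 35227 CPM, and the WT libraries 12221, 13499, 12122, 12291 and 10566 CPM. The dKO libraries held 7683, 13254, 8843, 15193 and 14643 CPM and the FGF21 KO libraries 8378, 14672, 6025, 7317 and 7904 CPM. UCP1 KO replicate 2, the only UCP1 KO library with a high lymph node score, was at the level of WT, and the remaining UCP1 KO libraries were above all others.

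Cox7a1 and Cox8b, the complex IV forms abundant in BAT, were higher in UCP1 KO iWAT than in every library of the other genotypes. Cox7a1 was at 4.54, 5.66, 4.93, 10.2 and 24.7 CPM in WT, 3.45, 9.70, 1.27, 1.46 and 6.24 in FGF21 KO, 83.0, 34.2, 119, 132 and 223 in UCP1 KO and 3.04, 8.08, 7.71, 15.2 and 10.9 in dKO iWAT. The UCP1 KO group did not overlap with WT (exact permutation p = 0.00794 against WT), and the adjusted p was 0.00854 against WT and 0.00855 against dKO. Its share of the Cox7a family was 22.0 to 47.5% in UCP1 KO, against 3.59 to 18.4% in WT, 1.44 to 7.02% in FGF21 KO and 2.98 to 9.98% in dKO. Cox8b was at 32.5, 36.0, 36.7, 71.6 and 45.1 CPM in WT, 22.1, 59.2, 5.98, 11.1 and 22.0 in FGF21 KO, 228, 104, 300.0, 297 and 406 in UCP1 KO and 15.4, 50.7, 38.1, 82.6 and 68.9 in dKO iWAT. Cox8b did not pass against WT (log2 fold change 2.59, SE 0.545, adjusted p = 0.0166). Its share of the Cox8 family was 44.9 to 57.0% in UCP1 KO, below the 64.9 to 67.3% of WT BAT, and 17.3 to 33.3% in WT, 9.18 to 24.0% in FGF21 KO and 14.8 to 29.2% in dKO. These shares are ratios within a library and stand without any scaling. Cox6a2, the form that rose in BAT, did not pass in iWAT (0.26, adjusted p = 0.960), nor in the libraries with low muscle markers (4.55, adjusted p = 0.0208).

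Cox5a (chr9:57521274-57532426), a complex IV subunit without a tissue form, also rose. Its levels were 95.3, 107, 87.2, 108 and 107 CPM in WT, 74.2, 119, 63.1, 60.6 and 76.8 in FGF21 KO, 228, 127, 266, 280.2 and 441 in UCP1 KO and 63.5, 102, 83.1, 131 and 117 in dKO iWAT. All UCP1 KO libraries but replicate 2 were far above the rest, and replicate 2 was above all WT libraries but below the highest dKO library (UCP1 KO against WT log2 fold change 1.41, SE 0.267, adjusted p = 0.00854). Ndufaf4 (chr4:24898083-24905001), a complex I assembly factor, was the third that rose (log2 fold change 1.13, SE 0.187, adjusted p = 0.00363). It was at 18.4, 19.1, 17.6, 20.9 and 23.2 CPM in WT, 18.5, 23.7, 19.3, 15.7 and 21.1 in FGF21 KO, 38.0, 28.0, 40.5, 41.4 and 69.2 in UCP1 KO and 17.5, 22.5, 21.7, 24.4 and 27.3 in dKO iWAT. The UCP1 KO libraries did not overlap those of any other genotype. Of 20 fits without 1 library, Cox7a1 lost its call in 14, Cox5a in 16 and Ndufaf4 in 4, with adjusted p up to 0.0374 for Cox7a1 and Cox5a. Cycs (1.68, adjusted p = 0.0157), the Rieske protein gene Uqcrfs1 (1.47, adjusted p = 0.0199) and the complex III core gene Uqcrc1 (1.40, adjusted p = 0.0126) had adjusted p above 0.01. The members with the lowest fold changes included Ndufa4l2 (-0.68, adjusted p = 0.564), Cox4i2 (-0.29, adjusted p = 0.695), Atp5g1 (-0.28, adjusted p = 0.609), Atp5g3 (0.01, adjusted p = 0.995), Atp5j (0.09, adjusted p = 0.923) and Cox7a2l (0.14, adjusted p = 0.704). The ratio of complex III to ATP synthase counts was 0.316 to 0.349 in UCP1 KO iWAT, above the 0.267 to 0.292 of WT, 0.263 to 0.278 of FGF21 KO and 0.259 to 0.286 of dKO.

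Compared with dKO, UCP1 KO had 3 members higher and 0 lower (0.437% of all genes higher), and the median was 0.91. At an adjusted p under 0.05 it was 34 members (1.96% of all genes), at an unadjusted p under 0.05 it was 80 (9.80%), and in 4 members all UCP1 KO libraries lay above all dKO libraries (1.48%). The 3 were Cox7a1, Cox5a (1.43, adjusted p = 0.00961) and Ndufa6, an accessory subunit of complex I (log2 fold change 1.07, SE 0.193, adjusted p = 0.00824). The UCP1 KO libraries are shared by both comparisons, so their likeness is not independent. Ndufa6 was 98.8, 60.7, 113, 119 and 155 CPM in UCP1 KO and 41.7 to 66.8 CPM in dKO, overlapping through UCP1 KO replicate 2. Against dKO the calls of Cox7a1, Cox5a and Ndufa6 were lost in 15, 18 and 16 of 20 such fits.

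The number of members called in iWAT changed with the tool, with single libraries and in fits that took lymph node markers into account. At the same threshold DESeq2 called 47 members against WT (3.43% of all genes) and 44 against dKO (3.08%). These shares and those up to the fits without 1 library count both directions. Shares for the score fits and library totals in this paragraph count higher genes only. A fit of the compared genotypes alone called 0 and 0 members (0.00575% and 0% of all genes), and a fit without the low-count filter 1 and 0 (0.372% and 0.230%). Without UCP1 KO replicate 2, 32 members passed against WT (2.07% of all genes) and 40 against dKO (2.14%), and without FGF21 KO replicate 2 it was 10 (0.944%) and 11 (0.806%). Without UCP1 KO replicate 4 or any 1 of WT replicates 1 to 3, 0 passed against WT, and 0 passed against dKO in 14 of the 20 fits without 1 library. The lymph node markers summed to 10.2 to 985 CPM in WT, 9.79 to 1433 CPM in FGF21 KO, 8.39 to 1392 CPM in UCP1 KO and 5.39 to 1405 CPM in dKO iWAT, with 2, 4, 1 and 2 libraries above a score of 4, none of the 7 markers at 0 and 0 of 7 called. In the libraries with a low score alone, the members summed to 12122 to 13499 CPM in WT (n = 3), 14672 CPM in FGF21 KO (n = 1), 21268 to 35227 CPM in UCP1 KO (n = 4) and 13254 to 15193 CPM in dKO (n = 3), and 71 members rose against WT (3.22% of all genes) and 26 against dKO (0.771%). With that score as a covariate it was 51 (3.06%) and 67 (3.30%). Muscle markers were raised in UCP1 KO replicate 1 (score 10.4), WT replicates 5 (9.45) and 4 (6.04) and FGF21 KO replicate 5 (7.99). Their sums were 24.1 to 9486 CPM in WT, 32.9 to 4247 CPM in FGF21 KO, 39.1 to 20682 CPM in UCP1 KO and 37.4 to 768 CPM in dKO, none was at 0 and 0 of 10 were called. With the muscle score as a covariate 2 members rose against WT (0.598% of all genes) and 0 against dKO (0.299%). In the libraries with a low muscle score alone (3 WT, 4 FGF21 KO, 4 UCP1 KO and 5 dKO) no member passed against WT (0.178%) or dKO (0.184%), with medians of 0.84 and 0.92, Cox7a1 at 4.65 (adjusted p = 0.0136) and 3.80 (adjusted p = 0.0137), and Cox5a at 1.52 (adjusted p = 0.0425) and 1.46 (adjusted p = 0.0312). With library totals all genes moved by -0.16 against WT and -0.18 against dKO, and 26 and 27 members rose (1.23% and 1.02% of all genes).

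Brown adipocyte markers other than Ucp1 moved with the members. They summed to 288 to 1796 CPM in UCP1 KO iWAT, against 40.6 to 83.7 CPM in WT, 18.8 to 81.1 CPM in FGF21 KO and 37.7 to 130 CPM in dKO, and 4 of 6 tested rose against WT (Elovl3, Cidea, Dio2 and P2rx5) and 1 of 6 against dKO (Elovl3). Of the 7 markers, 1 was at 0 in some library and none was at 0 in all libraries of a group. White adipocyte markers had 0 of 6 called. Whether more brown-like cells or more RNA per cell underlies the members' levels cannot be told apart.

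The remaining iWAT comparisons called no member. For dKO against FGF21 KO edgeR called 0 (0.0115% of all genes) and DESeq2 0, with 3 members higher at an unadjusted p under 0.05 (8.62% of all genes in either direction) and a median of 0.41, which was -0.03 where the lymph node score was low, a value that rests on 3 dKO libraries and 1 FGF21 KO library. For FGF21 KO against WT edgeR called 0 (0.00575%) and DESeq2 0, with 8 lower at an unadjusted p under 0.05 (17.4%, either direction) and a median of -0.45, while 4 of the 5 FGF21 KO libraries had a high lymph node score. For dKO against WT edgeR called 0 (0.0173%) and DESeq2 0, with 1 lower at an unadjusted p under 0.05 (5.91%, either direction) and a median of -0.04. The interaction called 0 with edgeR (0%) and 0 with DESeq2, with 13 higher and 1 lower at an unadjusted p under 0.05 (9.98%, either direction), so a dependence of the UCP1 KO effect on FGF21 was not shown for any member by this test.

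The effect of UCP1 loss in BAT was compared directly with that in iWAT, as their difference over 40 libraries, which tests whether the effects differ and not whether their signs are opposite. The effect was lower in BAT for 66 of 91 members and higher for 1 (edgeR, adjusted p under 0.01), where 3.99% and 2.31% of all genes were, with a median difference of -1.23 (log2) against 0.05. The 66 were 28 of 36 complex I subunits, 2 of 7 assembly factors, all 5 genes of complex II and cytochrome c, all 8 of complex III, 13 of 18 in complex IV and 10 of 15 in ATP synthase. The largest were Cox7a1 (log2 fold change -3.82, SE 0.644, adjusted p = 0.000127), Cox8b (log2 fold change -3.30, SE 0.540, adjusted p = 9.22e-05), Uqcrh (-1.82, adjusted p = 2.36e-06), Ndufa1 (-1.82, adjusted p = 1.39e-05) and Cox7b, a small complex IV subunit (-1.79, adjusted p = 4.38e-05). Atp5g1 was the single member with a higher effect in BAT (log2 fold change 2.395, SE 0.599, adjusted p = 0.00635), and Cox6a2 did not pass (6.35, adjusted p = 0.0110). With library totals the difference of all genes shifted by 0.45, and 54 of the 66 were lower and 2 members higher, where 1.97% and 14.5% of all genes were. Without the 9 iWAT libraries with a high lymph node score 81 members were lower, among them all 66, and 0 higher (8.05% and 4.03% of all genes). Neither Atp5g1 (2.14, adjusted p = 0.0368) nor Cox6a2 (0.40, SE 1.73, adjusted p = 0.894) passed there.

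In liver and muscle no member passed in any comparison. The shares of all genes in this paragraph are those of edgeR. Of 89 members tested in liver (Cox4i2 and Cox6b2 also failed the low-count filter there), edgeR and DESeq2 each called 0 for UCP1 KO against WT (0.0694% of all genes), dKO against FGF21 KO (0.00694%), UCP1 KO against dKO (0.00694%), dKO against WT (0.0416%), FGF21 KO against WT (0.229%) and the interaction (0%). At an unadjusted p under 0.05 there were 2, 1, 1, 3, 1 and 0 members in this order, beside 10.2%, 6.75%, 8.25%, 12.1%, 7.54% and 5.16% of all genes. The medians were between -0.04 and 0.02, and Cox6a2 in UCP1 KO against WT had the smallest adjusted p (-1.76, adjusted p = 0.125). Of 91 members tested in muscle, edgeR and DESeq2 each called 0 in the same comparisons (0.0265%, 0.0595%, 0%, 0.0529%, 0.00662% and 0% of all genes), with 1, 3, 4, 2, 3 and 1 members at an unadjusted p under 0.05, beside 9.81%, 7.96%, 11.7%, 12.2%, 12.9% and 7.48% of all genes. The members' sums overlapped between all genotypes, at 9683 to 12551 CPM in UCP1 KO and 10510.4 to 12422 CPM in WT liver, and 22519 to 25079 and 22392 to 27074 CPM in muscle. The muscle forms kept their place there, with Cox6a2 at 93.9 to 96.6% of its pair in UCP1 KO and 92.5 to 96.7% in WT muscle.

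On the TMM scale, other genes of the respiratory chain had a median below 0 in BAT and above 0 in iWAT. The 47 tested included assembly factors, Cyc1, genes of the electron-transfer flavoprotein, Atpif1, Usmg5 and Lrpprc. The names below were chosen after their values were seen. In BAT of UCP1 KO against WT 11 fell and 1 rose (median -0.17), where 11.4% of all genes fell and 13.8% rose. With library totals 2 fell and 9 rose (2.89% and 33.3% of all genes), and the median turned to 0.12. Pet100, an assembly factor of complex IV, fell most (log2 fold change -1.03, adjusted p = 6.74e-06), followed by the complex IV assembly genes Cox14 (-0.59) and Cmc1 (-0.54) and by Bcs1l (-0.50), which inserts the Rieske protein into complex III. The gene that rose was Atpif1, the inhibitor of ATP hydrolysis by ATP synthase (0.48, adjusted p = 0.0014). In dKO against FGF21 KO 6 fell and 0 rose (median -0.11), where 6.80% and 6.74% of all genes did, and with library totals 2 fell and 8 rose (1.74% and 17.3%, median 0.11). On the TMM scale Pet100 (-0.75), Cox14 (-0.66) and Cmc1 (-0.61) again fell most. In iWAT Lrpprc, which stabilises mRNAs of mitochondrial DNA, was the only one that passed, against WT (1.01, adjusted p = 0.00447, median of the list 0.54) and against dKO (0.93, adjusted p = 0.00941, median 0.50). Of all genes, 0.593% and 0.437% rose there. With library totals 8 of the 47 rose against WT and 7 against dKO (1.23% and 1.02% of all genes, medians 0.36 and 0.33). The effect of UCP1 loss was lower in BAT than in iWAT for 21 of the 47 and higher for 0 (3.99% and 2.31% of all genes), and for 9 and 2 with library totals (1.97% and 14.5%).

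Of 18 tested genes for other parts of mitochondria, 2 rose in BAT of UCP1 KO against WT, the outer membrane channels Vdac3 (0.29) and Vdac1 (0.26), and 1 fell, the inner membrane fusion gene Opa1 (-0.40), where 13.8% of all genes rose and 11.4% fell. Their median was -0.01, against -0.32 for the members, and with library totals it was 0.28 with 7 of the 18 higher (33.3% of all genes). In iWAT of UCP1 KO against WT 0 of the 18 passed with edgeR, 17 were higher at an unadjusted p under 0.05 (10.2% of all genes) and the median was 0.64. With library totals 4 of the 18 passed as higher (1.23% of all genes, median 0.46). The 13 protein-coding genes of mitochondrial DNA were not analysed here. Reads that a member shares with a processed pseudogene, which many of these genes have, may have been split or dropped in the counting.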

How the data were processed

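The labels give tissue and genotype of each library. The authors extracted total RNA, selected poly(A) RNA, sequenced stranded libraries, aligned the reads to mm10 with STAR and counted them per gene with HTSeq, per the submitters' processing notes, and deposited raw read counts, 1 library per file. Whether reads were counted by strand is not given in the sources used here. A row named unknown held at most 3.42e-05% of counts and was left out.

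Genes with a maximum above 15, a sum above 75 and at most 10 libraries at 0 were tested in the 20 libraries of a tissue (40 for both fat depots, 20 for WT). Counts were fitted with edgeR 4.0.16 (TMM, quasi-likelihood F test, a mean per group, limma 3.58.1, R 4.3.3), with Benjamini-Hochberg adjustment over all genes tested and a threshold of 0.01. DESeq2 1.42.0 was an alternative. Shares of all genes are those of edgeR unless given for a DESeq2 count alone. The code was tested on simulated data. Levels are CPM, and log2 CPM used a prior count of 2. Single members were also compared with an exact two-sided permutation test (Python 3.11.15). Lengths are those of the shortest principal transcript in GENCODE on GRCm38. Marker scores are mean log2 of CPM plus 0.1.

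The members and lists were chosen with earlier results of these data known. Named with values are the isoform families, up to 3 called members per complex and direction in the main fat comparisons, up to 5 per direction between tissues and between depots, the 3 highest per tissue, members within 10 Mb of Ucp1 or Fgf21 and those without counts. Library totals and the fits of libraries with low lymph node or muscle scores (limits of 4 and 6) were chosen after seeing the data, as were other genes named. Of 760 pairs of libraries within a tissue, 0 were identical.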

Additional observations from a re-analysis of the deposited data

Results flagged for a closer look

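Among 112 sets of 5 libraries, each a summed level of a complex or of all members in 1 tissue and genotype, chance would mark about 1 in 20 for a library that stands apart from the other 4. In FGF21 KO BAT, replicate 5 lay above the other libraries for complex I subunits (14096 CPM), complex IV (10726 CPM), ATP synthase (18052 CPM) and all members (57811 CPM). In FGF21 KO iWAT, replicate 2 lay above the rest for complex I subunits (3628 CPM), complex I assembly factors (141 CPM), complex II with cytochrome c (1499.9 CPM), complex III (1429.9 CPM), ATP synthase (5418 CPM) and all members (14672 CPM). It was the only FGF21 KO iWAT library with a lymph node score at or under 4.

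The effect of UCP1 loss differed between BAT and iWAT by the test of the difference itself (edgeR, adjusted p under 0.01). It was lower in BAT for 66 members, namely 28 complex I subunits, 2 assembly factors, 5 genes of complex II and cytochrome c, 8 of complex III, 13 of complex IV and 10 of ATP synthase. For Atp5g1 it was higher in BAT, by 2.395 on the log2 scale, a call that was lost without the iWAT libraries with a high lymph node score (2.14, adjusted p = 0.0368).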

How the results depend on the processing

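Of the alternatives for counts and shares, 193 stayed within 1.5 times the count or within the spread between libraries and 31 moved, apart from fits without 1 library. In BAT, UCP1 KO against WT called 24 members in a fit of the compared genotypes alone (16.5% of all genes, a share that counts both directions, as do those that follow) and 23 with library totals (36.2%), against 45 (25.2%). For dKO against FGF21 KO it was 35 at an adjusted p under 0.05 (28.0%), 10 in libraries with a low muscle score (11.9%) and 12 with the muscle score as a covariate (8.13%), against 21 (13.5%). For dKO against WT it was 38 at an adjusted p under 0.05 (36.9%), 33 with those genotypes alone (21.4%), 10 with a low muscle score (17.1%) and 11 with the covariate (11.9%), against 20 (21.1%). In iWAT, UCP1 KO against WT gave 30 at an adjusted p under 0.05 (2.59%), 47 with DESeq2 (3.43%), 5 with RLE factors (0.788%), 0 with those genotypes alone (0.00575%), 71 with a low lymph node score (3.73%), 26 with library totals (1.496%), 51 with the lymph node covariate (4.61%), 0 with a low muscle score (0.236%) and 1 without the filter (0.372%), against 3 (0.610%). UCP1 KO against dKO gave 34 at an adjusted p under 0.05 (2.32%), 44 with DESeq2 (3.08%), 0 with those genotypes alone (0%), 26 with a low lymph node score (0.944%), 27 with totals (1.35%), 67 with the lymph node covariate (4.29%), 0 without the filter (0.230%), 0 with a low muscle score (0.196%) and 0 with the muscle covariate (0.322%), against 3 (0.466%). Without 1 library the counts ranged from 0 to 32 and from 0 to 40. Counts not divided by length gave shares of 43.9% for Cox7a1 and 56.0% for Cox8b in WT BAT, 43.1% for Atp5g1 in WT muscle and 22.8% for Cox7a1 in UCP1 KO iWAT. Ndufaf5 in BAT turned from a fall to 0.000547 (log2) with library totals. Among single members, 134 of 840 fits without 1 library lost a call. The causes of these changes were not tested, except that totals leave out the TMM factors and fits of 2 genotypes hold fewer libraries. No paired analysis was possible because the labels carry no replicate numbers or mouse identities, and the numbers used here follow the order of deposition.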
